A study of Mus musculus with 12 samples.

Results

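Collagens are the main structural proteins of the extracellular matrix, and the measurements concern all 42 genes among the 18194 measured whose symbol has the form Col, number, a, number. Each gene is represented by 1 Affymetrix probe set, the brightest over the 12 arrays among those naming only that gene. By the kind of structure their chains build, 11 genes are fibrillar, 9 belong to or lie beside basement membranes and 22 are of other types. Of the 42 probe sets, 24 lay above the median of their array on all 12 arrays, 8 lay below it on all 12, and 10 were mixed.

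The study asked how loss of TGF-beta signalling bears on obesity and diabetes in mice. In the diet experiment, wild type C57BL/6 mice and Smad3-/- mice, which lack a transcription factor that carries the TGF-beta signal to the nucleus, were fed either regular diet or high fat diet (55% fat). The Smad3-/- mice are of mixed strains, C57BL/6 with NIH Black Swiss females, so genotype and strain cannot be told apart. In the antibody experiment, diet-induced obese mice of the strain labelled C57J/B6 received intraperitoneal control IgG (13C4) or antibody against TGF-beta (1D11) over 8 weeks, with 3 injections per week. Each of the 6 groups has 2 arrays, a and b, made from 6 ug of total RNA. Nothing in the labels tells whether the arrays of a group stem from different animals, and the p-values then describe only how far these arrays spread, possibly for technical reasons.

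Fibrillar collagens (types I, III and V in most soft tissues) are secreted as procollagens, trimmed and cross-linked into fibers. Type IV chains form the network of basement membranes, which surround every adipocyte and blood vessel, and type VI forms beaded microfilaments close to those membranes. In adipose tissue collagen genes are expressed mainly by stromal cells and, for types IV and VI, also by adipocytes, and TGF-beta is a classical inducer of collagen transcription.

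The labels name no tissue. Adipoq, the adipocyte hormone adiponectin, lay at 13.0 to 14.2 log2 on every array. The brightest Smad3 probe set averaged 8.90 (wild type, regular diet), 8.92 (wild type, high fat), 9.13 (Smad3-/-, regular diet) and 9.09 (Smad3-/-, high fat), and no Smad3 probe set passed the test between genotypes, which checks nothing if it lies outside the deleted part. Groups differed in markers of other tissues. For 5 epididymis markers, the summed level (log2 of the sum of unlogged values) was 15.6 to 15.7 in Smad3-/- mice on regular diet. It was 11.2 to 11.4 in wild type on high fat diet and 8.25 to 10.0 in the remaining groups of the diet experiment. In the antibody experiment it was 7.12 to 7.18 with IgG and 7.33 to 7.39 with antibody. For 7 smooth muscle and pericyte markers it was 14.7 on both arrays of wild type on regular diet and 12.3 to 13.0 in the 3 other groups of the diet experiment. For 6 skeletal muscle markers it was 13.9 to 14.0 in Smad3-/- mice on high fat diet, against 9.49 to 11.4 in the rest of the diet experiment. In the antibody experiment it was 14.1 with antibody, against 10.3 to 10.5 with IgG. These log2 values have no zero, so no marker can be called absent. In such bulk samples, fewer cells of a type and less RNA per cell cannot be told apart.

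Levels are log2 values, differences are log2 differences with the standard error (SE) of the limma fit, and a gene passed where its Benjamini-Hochberg adjusted p over all 18194 genes was under 0.05. Levels are compared neither between genes, whose probes differ, nor between the 2 experiments, whose arrays have different medians (6.32 to 6.39 against 6.03 to 6.04) and SDs (1.64 to 1.74 against 2.15 to 2.17).

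Across the 5 comparisons of 2 groups, 24 of the 42 genes passed in at least 1, and 20 were lower in at least 1. The 18 that passed in none include the cartilage collagens Col2a1, Col9a1, Col9a2, Col9a3, Col11a1 and Col11a2, the epidermal collagens Col7a1 and Col17a1, and the type IV chains Col4a3 and Col4a6. On the 1 probe set used for each gene, their differences lay between -0.31 and 0.39. The genes that moved are the type I, III and V fibrillar chains, the type IV chains Col4a1 and Col4a2, the type VI chains Col6a1, Col6a2 and Col6a3, and Col15a1 and Col18a1, with a few others.

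**Figure D1:**
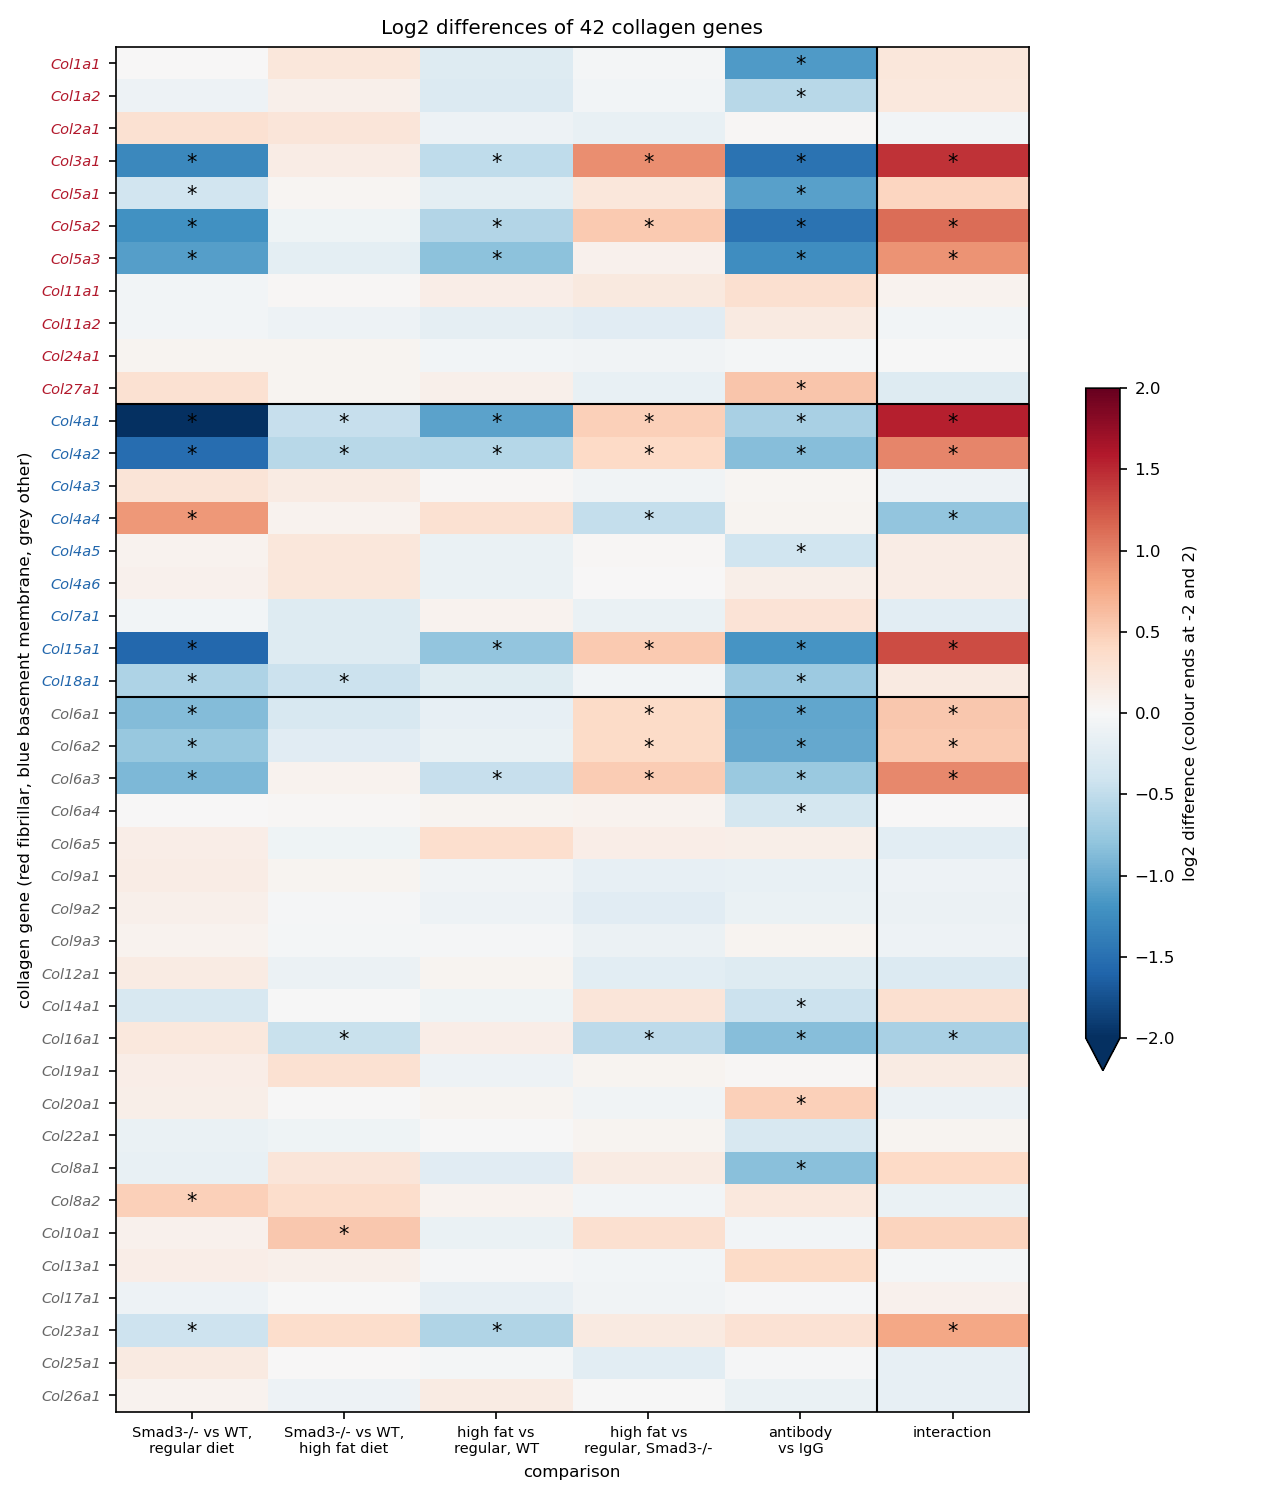
Log2 differences of the 42 collagen genes (rows, grouped by class) in 5 comparisons of 2 groups and their interaction (columns), with a star where the gene passed at an adjusted p under 0.05. Blue stands for lower values in Smad3-/- mice, on high fat diet or with antibody, and red for higher. The darkest cell is Col4a1 in Smad3-/- against wild type on regular diet, at -2.00.

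The sequences before the starts of Col3a1, Col15a1 and Col6a3 are shown because these genes, 1 of each class, were lower both in Smad3-/- mice on regular diet and with the antibody. Each is the 250 bases before the annotated start in RefSeq (GRCm38.p6), 5′ to 3′ on the gene's strand, with matches to CAGAC, the core letters of the element that SMAD proteins bind, in capitals (as GTCTG where the match is on the opposite strand).
Col3a1, chr1:45311288-45311537, plus strand: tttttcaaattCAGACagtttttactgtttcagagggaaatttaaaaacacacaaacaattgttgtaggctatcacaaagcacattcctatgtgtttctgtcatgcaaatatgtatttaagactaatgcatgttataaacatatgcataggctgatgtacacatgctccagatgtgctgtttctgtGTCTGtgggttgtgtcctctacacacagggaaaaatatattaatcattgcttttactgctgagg
Col15a1, chr4:47207762-47208011, plus strand: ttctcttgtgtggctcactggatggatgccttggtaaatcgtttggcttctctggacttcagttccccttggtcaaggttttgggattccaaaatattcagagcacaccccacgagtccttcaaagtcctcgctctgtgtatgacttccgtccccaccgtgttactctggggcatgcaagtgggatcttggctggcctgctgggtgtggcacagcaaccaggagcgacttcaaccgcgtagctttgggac
Col6a3, chr1:90843972-90844221, minus strand: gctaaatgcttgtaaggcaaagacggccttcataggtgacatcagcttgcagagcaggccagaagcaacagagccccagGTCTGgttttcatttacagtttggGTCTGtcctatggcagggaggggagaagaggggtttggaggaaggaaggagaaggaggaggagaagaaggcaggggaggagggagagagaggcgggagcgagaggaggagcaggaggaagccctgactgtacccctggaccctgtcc

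Col3a1 and Col6a3 each had 2 matches and Col15a1 had 0. The first letters of the Col3a1 matches lay 239 and 64 bases before the start, and those of Col6a3 171 and 147 bases. Windows were found for 33 of the 42 genes (36 windows). CAGAC, on either strand, was in 41.7% of the collagen windows and in 42.2% of all 32851 windows of this length. Among the 12 windows of the genes lower in both comparisons, 50% held it. CCAAT, bound by the factor NF-Y, was in 36.1% of collagen windows and 33.8% of all windows. The letters TATAAA of the TATA box were in 13.9% of collagen windows and 12.4% of all. These shares were close for collagen and all windows, and a match is not a binding site.

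In Smad3-/- mice on regular diet, 12 collagen genes were lower than in wild type and 2 were higher. The falls covered type IV, type XV, type III, type V and type VI chains, and type I chains were not among them. Over all genes, 24.0% passed, 15.6% lower and 8.40% higher, against 28.6% of collagen genes lower. All 12 falls were among the 24 collagen genes above the array median on every array, while 27.0% of the 9103 genes that bright were lower. The median difference was 0.01 for the 42 collagen genes and 0.04 for all genes.

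Col4a1, which with Col4a2 makes the common type IV molecule, showed the largest difference of any collagen gene in the 5 comparisons of 2 groups. It read 11.78 and 11.75 in wild type (arrays a and b) and 9.84 and 9.68 in Smad3-/- mice on regular diet. The difference was -2.00 ± 0.10 (4.01-fold lower, adjusted p = 5.6e-15). The arrays of each group lay close together compared with the gap between groups. Col4a2, its neighbour in the genome, read 11.12 and 11.01 against 9.73 and 9.34, a difference of -1.53 ± 0.11 (2.89-fold lower, adjusted p = 1.7e-11). Col15a1, whose product links basement membranes to the fibrils beside them, read 9.03 and 9.16 against 7.73 and 7.34, a difference of -1.56 ± 0.12 (2.96-fold lower, adjusted p = 1.6e-11). Neither gene's groups overlapped, which held for every collagen gene called in a comparison of 2 groups and so adds no support to a call. The share of such genes over all genes was not counted. Col18a1, the precursor of endostatin, was lower by a smaller amount, at 9.43 and 9.28 against 8.81 and 8.67 (-0.62 ± 0.10, adjusted p = 3.8e-05). Among the other type IV chains, Col4a4, found with Col4a3 and Col4a5 in the kidney's glomerular membrane, was higher, at 7.43 and 7.41 in Smad3-/- against 6.48 and 6.64 (0.86 ± 0.14, adjusted p = 1.6e-05). Its genomic neighbour Col4a3 differed by 0.26 ± 0.14 and did not pass.

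Among fibrillar genes, 4 of 11 were lower and 0 higher in the limma fit (2 higher at an unadjusted p under 0.05). Col3a1, the chain of type III fibrils, read 9.99 and 10.15 in wild type and 8.89 and 8.68 in Smad3-/- mice (-1.29 ± 0.11, 2.44-fold lower, adjusted p = 4.0e-10). Col5a2 and Col5a3, chains of the type V collagen that limits fibril width, differed by -1.21 ± 0.11 and -1.10 ± 0.12 (2.31-fold and 2.14-fold lower, adjusted p = 1.6e-09 and 1.4e-08). Their arrays did not overlap between groups. Col5a1 was lower by less, -0.39 ± 0.11 (adjusted p = 0.010), and its call was lost without array a of wild type (-0.30, adjusted p = 0.153) or array a of Smad3-/- (-0.33, adjusted p = 0.0832). Type I collagen, the most abundant fibrillar type in most tissues, did not pass. Col1a1 read 7.97 and 8.08 in wild type and 8.06 and 8.00 in Smad3-/- mice (0.00 ± 0.12, 95% interval -0.25 to 0.25). Col1a2 read 11.09 and 10.92 against 10.99 and 10.81 (-0.10 ± 0.11, interval -0.33 to 0.12). The groups overlapped for both chains. After quantile normalization over 12 arrays Col1a2 read 0.19 (adjusted p = 0.0486), above 0.

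The 3 main type VI chains were lower together. Col6a1 read 10.31 and 10.21 in wild type and 9.52 and 9.27 in Smad3-/- mice (-0.87 ± 0.11, adjusted p = 3.7e-07). Col6a2, beside Col6a1 in the genome, read 11.25 and 11.27 against 10.53 and 10.49 (-0.75 ± 0.10, adjusted p = 1.1e-06). Col6a3, the chain from which endotrophin is cleaved, read 9.57 and 9.58 against 8.71 and 8.66 (-0.89 ± 0.10, adjusted p = 1.1e-07). In each of the 3 genes both Smad3-/- arrays lay below both wild type arrays. Col6a4 and Col6a5 did not pass, at 0.01 ± 0.13 and 0.13 ± 0.14. The remaining calls were small: Col23a1, a transmembrane collagen, was lower (-0.42 ± 0.14, adjusted p = 0.025) and Col8a2, of the type VIII found in the corneal basement membrane, was higher (0.47 ± 0.15, adjusted p = 0.022). The call of Col23a1 was lost without array b of wild type (-0.27, adjusted p = 0.304) or without array a or b of Smad3-/- (-0.40 and -0.44). The call of Col8a2 was lost without array a of wild type (0.30, adjusted p = 0.319) or array a or b of Smad3-/- (0.45 and 0.50), and after quantile normalization over 12 arrays (0.40, adjusted p = 0.0580).

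Probe sets of a gene did not always read alike here. Of 27 collagen genes with several, 4 had every probe set called the same way, 7 had some called, 16 had none called, and 0 had opposite calls. The dimmer Col1a1 probe set was higher in Smad3-/- mice (0.38 ± 0.12, adjusted p = 0.031 over all probe sets). The second Col3a1 probe set was lower by -0.43 ± 0.15 (adjusted p = 0.048) and the second of Col5a2 did not pass (-0.31 ± 0.15, adjusted p = 0.18). That of Col5a3 did not pass either (-0.21 ± 0.15, adjusted p = 0.40). The other 2 of Col5a1 read -1.05 ± 0.11 (adjusted p = 6.1e-08) and -0.03 ± 0.12.

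Markers of several cell types moved in this comparison. All 5 epididymis markers were higher in Smad3-/- mice on regular diet, with a median difference of 7.00. Of 7 smooth muscle and pericyte markers 6 were lower (median -2.21). Lower values also passed in 4 of 4 adipocyte markers (median -1.39), 4 of 8 fibroblast markers (-0.43), 3 of 7 endothelial (-0.25), 4 of 5 macrophage (-1.16) and 4 of 5 mesothelial markers (-1.20), while 3 of 6 epithelial markers were higher (0.67). The 3' minus 5' difference of the Gapdh control probes was 0.12 and 0.14 in wild type and 0.28 and 0.41 in Smad3-/- mice. The part of these differences in the collagen values was not tested.

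**Figure D2:**
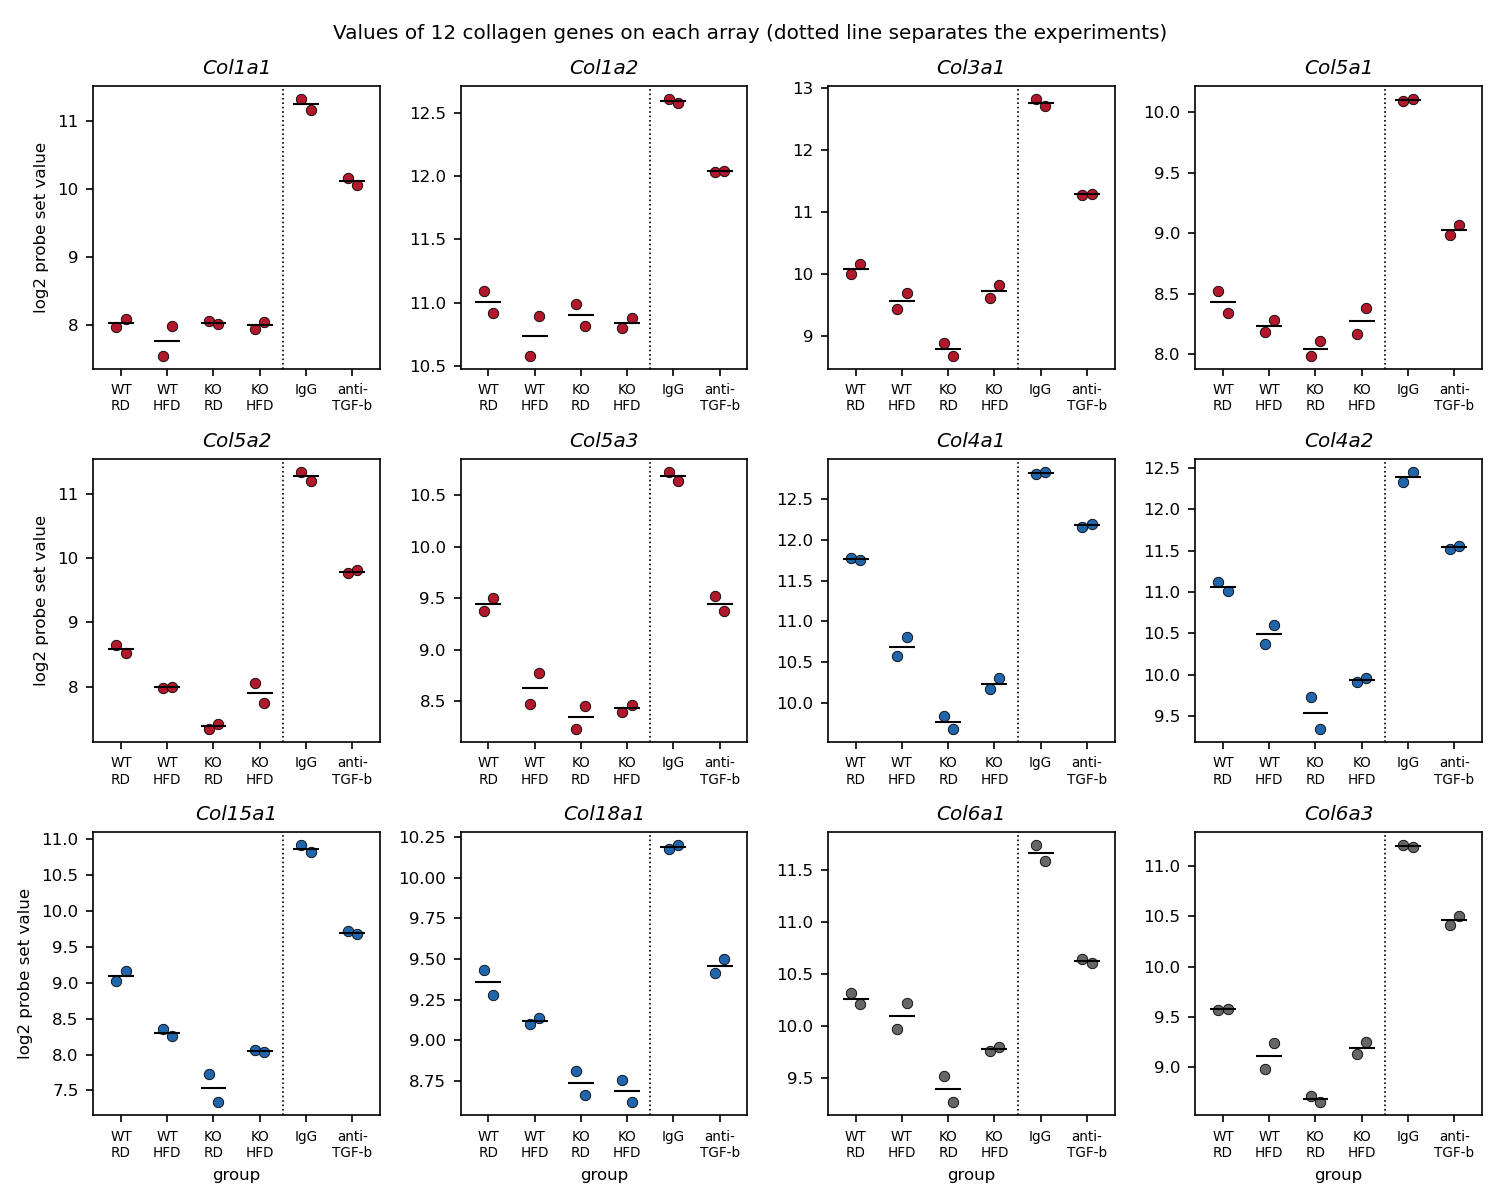
Log2 values of 12 collagen genes on each array (points, arrays a and b) and group means (lines) in wild type (WT) and Smad3-/- (KO) mice on regular (RD) or high fat (HFD) diet and in obese mice given IgG or antibody against TGF-beta, with a separate vertical scale for each gene. Red points are fibrillar, blue basement membrane and grey other collagens. Col1a1 lies between 7.54 and 8.08 on the 8 diet arrays, whereas Col4a1 ranges from 9.68 to 11.78.

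On high fat diet, fewer collagen genes differed between the genotypes. Of the 42, 4 were lower in Smad3-/- mice and 1 was higher, 11.9% in all. Over all genes 10.8% passed, 6.05% lower and 4.74% higher, so the collagen share lay near the background. The medians were 0.01 for collagen genes and -0.01 for all genes. In the limma fit 0 of 11 fibrillar genes passed, and 0 had an unadjusted p under 0.05 (differences from -0.20 to 0.25). Of the 4 falls, 3 were basement membrane genes.

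Col4a2 read 10.37 and 10.60 in wild type and 9.91 and 9.95 in Smad3-/- mice on high fat diet (-0.55 ± 0.11, 1.47-fold lower, adjusted p = 0.0010). Col4a1 read 10.57 and 10.80 against 10.16 and 10.31 (-0.45 ± 0.10, adjusted p = 0.0028). Col18a1 read 9.10 and 9.14 against 8.75 and 8.62 (-0.43 ± 0.10, adjusted p = 0.0054). In all 3 genes the groups were apart, by less than on regular diet for the type IV chains. Col16a1, a fibril-associated collagen, read 7.92 and 7.58 against 7.19 and 7.42 (-0.44 ± 0.13, adjusted p = 0.022). Col10a1, known from hypertrophic cartilage, read 6.01 and 5.92 against 6.48 and 6.53 (0.54 ± 0.17, adjusted p = 0.039). Col4a1 was lost without array b of wild type (-0.34, adjusted p = 0.0687) or a of Smad3-/- (-0.38, adjusted p = 0.0806), Col18a1 without b of Smad3-/- (-0.36, adjusted p = 0.0962), and Col16a1 without a of wild type (-0.27, adjusted p = 0.368) or a of Smad3-/- (-0.33, adjusted p = 0.306). Col10a1 was lost without any of the 4 arrays (0.50 to 0.58, adjusted p = 0.115 to 0.207). Col10a1 has 1 probe set, and with the mean over probe sets taken for the other genes its adjusted p was 0.0702.

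Several genes that were lower on regular diet did not pass on high fat diet. Col3a1 differed by 0.16 ± 0.11, Col5a2 by -0.09 ± 0.11, Col15a1 by -0.25 ± 0.12 and Col6a3 by 0.08 ± 0.10, none of which passed. Type I chains were at 0.23 ± 0.12 (Col1a1, 95% interval -0.02 to 0.48) and 0.10 ± 0.11 (Col1a2, interval -0.12 to 0.33). Without array b of wild type Col1a1 passed as higher (0.45, adjusted p = 0.027). Col6a1 (-0.32 ± 0.11) and Col6a2 (-0.23 ± 0.10) did not pass in the main fit. Both crossed the threshold as lower without array a of wild type (-0.44 and -0.36). They also did so after quantile normalization over 12 arrays (-0.27 for each, limma adjusted p = 0.043 and 0.0083). With the same difference, Col6a1 crossed it without array a or b of Smad3-/- mice on regular diet, which are not in this comparison. A probe set of Col12a1 other than the brightest was lower by -0.91 ± 0.14 (adjusted p = 5.8e-05), whereas the brightest did not pass (-0.12 ± 0.14). Col12a1 codes for a fibril-associated collagen, and this probe set was singled out after its values were seen. It was also lower with high fat diet in Smad3-/- mice (-0.84 ± 0.14, limma adjusted p = 0.00011 over all probe sets). The same held with the antibody (-0.70 ± 0.14, adjusted p = 0.00060), and its interaction was below 0 (-0.84 ± 0.20, adjusted p = 0.0042). It did not pass by genotype on regular diet or by diet in wild type. All 6 skeletal muscle markers were higher in Smad3-/- mice on high fat diet (median 5.01), 5 of 7 smooth muscle markers were higher (0.74) and 3 of 5 macrophage markers were lower (-0.37). The 8 fibroblast markers had a median of 0.20, and 1 of 4 adipocyte markers was lower (-0.00). Lower values also passed in 2 of 5 epididymis markers (median -0.29) and 3 of 6 epithelial markers (-0.79), whose summed level was 11.6 to 11.8 in wild type and 10.6 in Smad3-/- mice. The part of these markers in the collagen values was not tested.

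The diet comparisons use the arrays already given, so they are not independent of the genotype comparisons. In wild type mice, 8 collagen genes were lower on high fat than on regular diet, and the limma fit called 0 higher (2 at an unadjusted p under 0.05). Over all genes 10.8% passed, 6.11% lower and 4.69% higher, against 19.0% of collagen genes lower. Among bright genes 8 of 24 collagen genes (33.3%) and 10.2% of all 9103 were lower. The median difference was -0.10 for collagen genes and 0.02 for all genes.

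Type IV, V and XV chains led these falls. Col4a1, at 11.78 and 11.75 on regular and 10.57 and 10.80 on high fat diet, fell by 1.08 ± 0.10 (2.11-fold, adjusted p = 6.4e-09). Col5a3, at 9.38 and 9.51 against 8.48 and 8.78, fell by 0.81 ± 0.12 (adjusted p = 6.8e-06), and Col15a1, at 9.03 and 9.16 against 8.35 and 8.25, fell by 0.79 ± 0.12 (adjusted p = 1.3e-05). The groups did not overlap in any of the 3. The second Col5a3 probe set did not pass (-0.16 ± 0.15, limma adjusted p = 0.74 over all probe sets). Col4a2 (-0.58 ± 0.11), Col5a2 (-0.59 ± 0.11) and Col23a1 (-0.60 ± 0.14) fell by similar amounts, with adjusted p-values of 0.00067, 0.00041 and 0.0030. Col3a1, at 9.43 and 9.69 on high fat diet, fell by 0.51 ± 0.11 (adjusted p = 0.0021), and Col6a3, at 8.98 and 9.24, by 0.46 ± 0.10 (adjusted p = 0.0027). Type I chains did not pass, with 95% intervals of -0.51 to -0.01 for Col1a1 and -0.49 to -0.04 for Col1a2 that are not adjusted over genes. Without array b on high fat diet both passed, Col1a1 at -0.48 (adjusted p = 0.014) and Col1a2 at -0.42 (adjusted p = 0.018). Col18a1 passed with the mean of its probe sets (-0.38, adjusted p = 0.019).

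The call of Col3a1 was lost without array b on regular diet (-0.43, adjusted p = 0.0622), without array a on high fat diet (-0.38, adjusted p = 0.0735) and with the mean of its probe sets (-0.26, adjusted p = 0.263), and that of Col5a2 with the mean (-0.29, adjusted p = 0.0542). Col6a3 was lost without array a on high fat diet (-0.33, adjusted p = 0.0887) and Col23a1 without array b on regular diet (-0.45, adjusted p = 0.109). Of 7 smooth muscle and pericyte markers 6 fell with the diet (median -2.57), as did 4 of 8 fibroblast markers (-0.36), while 3 of 5 epididymis markers rose (0.47). Of 5 mesothelial markers 3 fell (median -0.65), and of 6 epithelial markers 3 rose (0.72). The 3' minus 5' difference of the Gapdh control probes was 0.12 and 0.14 on regular diet and 0.36 and 0.50 on high fat diet. The part of these values in the collagen values was not tested.

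In Smad3-/- mice the diet difference ran the other way: 8 collagen genes were higher on high fat diet and 2 were lower. Over all genes 17.3% passed, 11.5% higher and 5.82% lower, against 19.0% of collagen genes higher, and among bright genes 8 of 24 collagen genes (33.3%) and 20.0% of all 9103 were higher. The medians were 0.01 for collagen genes and -0.00 for all genes. Col3a1 led, rising from 8.89 and 8.68 to 9.61 and 9.82 (0.93 ± 0.11, 1.91-fold, adjusted p = 2.9e-07), and its groups were well apart. Col5a2 (7.34 and 7.42 to 8.06 and 7.75) and Col15a1 (7.73 and 7.34 to 8.06 and 8.04) each rose by 0.52 (SE 0.11 and 0.12, adjusted p = 0.0011 and 0.0015). Col6a3 rose by 0.50 ± 0.10 (adjusted p = 0.00072), Col4a1 by 0.48 ± 0.10 (adjusted p = 0.0011), Col4a2 by 0.40 ± 0.11 (adjusted p = 0.014), Col6a2 by 0.39 ± 0.10 (adjusted p = 0.0066) and Col6a1 by 0.38 ± 0.11 (adjusted p = 0.014). The second probe sets of Col3a1 (0.28 ± 0.15), Col5a2 (0.17 ± 0.15) and Col6a2 (0.21 ± 0.10) did not pass. Their limma adjusted p-values over all probe sets were 0.31, 0.64 and 0.24. That of Col4a1 passed (0.68 ± 0.10, adjusted p = 3.0e-05). Of 3 Col5a1 probe sets 1 passed as higher (0.56 ± 0.11, adjusted p = 0.00099), while the brightest did not pass (0.23 ± 0.11). Col16a1, from 7.75 and 7.92 to 7.19 and 7.42, fell by 0.53 ± 0.13 (adjusted p = 0.0036), and Col4a4, from 7.43 and 7.41 to 6.85 and 7.04, fell by 0.48 ± 0.14 (adjusted p = 0.015).

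Single arrays decided several of these calls, and the count went from 10 to 5 without array b of Smad3-/- mice on regular diet or without array a on high fat diet. Without that array b, Col4a2 (0.21, adjusted p = 0.306), Col6a1 (0.26, adjusted p = 0.198), Col15a1 (0.33, adjusted p = 0.0826), Col16a1 (-0.44, adjusted p = 0.0672) and Col4a4 (-0.48, adjusted p = 0.0710) were lost. Without array a on high fat diet, Col5a2 (0.37, adjusted p = 0.0647), Col4a2 (0.42, adjusted p = 0.0553), Col6a1 (0.40, adjusted p = 0.0538), Col16a1 (-0.41, adjusted p = 0.0862) and Col4a4 (-0.38, adjusted p = 0.175) were lost. Without array b on high fat diet, Col4a2 (0.38, adjusted p = 0.104), Col6a1 (0.36, adjusted p = 0.104) and Col6a2 (0.36, adjusted p = 0.0803) were lost, and without array a on regular diet Col4a4 was (-0.47, adjusted p = 0.0733). Quantile normalization over 12 arrays ended the calls of Col4a2, Col6a1 and Col6a2 (0.21, 0.21 and 0.14). Beside these values, 4 of 5 epididymis markers fell (median -6.88), 6 of 6 skeletal muscle markers rose (3.96), 4 of 4 adipocyte markers rose (1.29) and 5 of 8 fibroblast markers rose (0.38). Of 7 endothelial markers 5 rose (0.40), and of 6 epithelial markers 4 fell (-0.72). Smooth muscle and pericyte markers rose in 4 of 7 (median 0.35) and macrophage markers in 3 of 5 (0.34). Of 5 mesothelial markers 2 rose and 1 fell (0.36). The part of these markers in the collagen values was not tested.

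The interaction, the diet difference in Smad3-/- mice minus that in wild type, passed for 12 collagen genes, 10 above 0 and 2 below. Over all genes 18.8% passed, 12.0% above and 6.77% below 0, against 23.8% of collagen genes above 0. Among bright genes 10 of 24 collagen genes and 20.7% of all 9103 were above 0. The median was 0.08 for collagen genes and -0.02 for all genes. Of the 12, 3 were fibrillar, 4 basement membrane and 5 other collagens. The largest were Col4a1 (1.55 ± 0.15), Col3a1 (1.44 ± 0.16), Col15a1 (1.31 ± 0.16) and Col5a2 (1.12 ± 0.16), with adjusted p-values from 2.7e-09 to 4.3e-06. In each of these 4 genes the regular-diet arrays of wild type were the highest of the experiment and those of Smad3-/- mice the lowest, with both high fat groups in between. The second probe sets of Col3a1 (0.29 ± 0.21), Col5a2 (0.14 ± 0.21) and Col5a3 (0.42 ± 0.21) did not pass (limma adjusted p = 0.51, 0.80 and 0.26 over all probe sets). That of Col4a1 passed (1.26 ± 0.15, adjusted p = 3.9e-07). A dimmer Col5a1 probe set (0.85 ± 0.16, adjusted p = 0.00038) and the second of Col18a1 (0.53 ± 0.17, adjusted p = 0.045) passed too. The brightest of these 2 genes did not pass (0.43 ± 0.16 and 0.19 ± 0.15). With the mean of its probe sets Col5a1 passed (0.39, limma adjusted p = 0.026). Col1a1 (0.23 ± 0.17) and Col1a2 (0.20 ± 0.15) did not pass. Smooth muscle and pericyte markers had an interaction above 0 in 6 of 7 (median 4.05) and skeletal muscle markers in 6 of 6 (4.58). It was also above 0 in 4 of 4 adipocyte (median 1.28), 5 of 8 fibroblast (0.70) and 4 of 7 endothelial markers (0.51). The same held for 3 of 5 mesothelial (0.57) and 2 of 5 macrophage markers (0.20). Below 0 were 5 of 5 epididymis (median -8.03) and 3 of 6 epithelial markers (-1.42). The part of these markers in the collagen interaction was not tested.

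**Figure D3:**
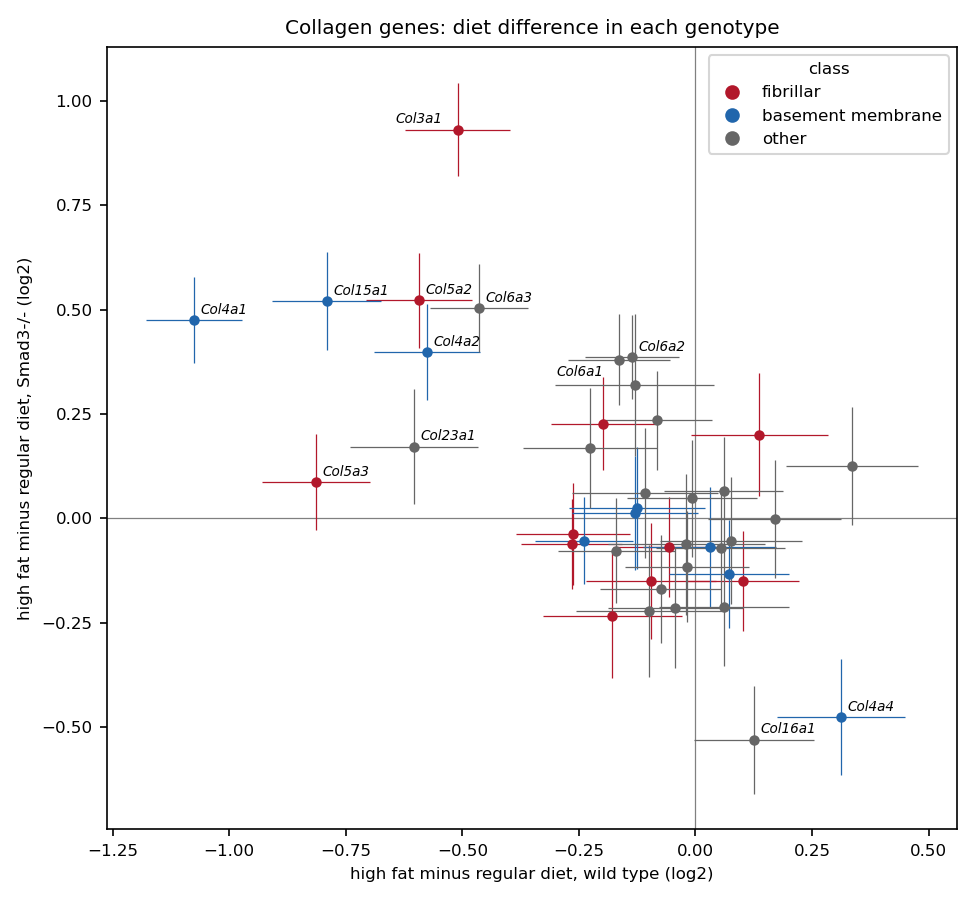
Diet difference (high fat minus regular, log2) of the 42 collagen genes in wild type (horizontal) and Smad3-/- mice (vertical), with SE bars, coloured by class. Genes that passed in either genotype are named. Col3a1, Col4a1, Col4a2, Col5a2, Col6a3 and Col15a1 lie at the upper left, below 0 in wild type and above 0 in Smad3-/- mice.

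In obese mice given the antibody against TGF-beta, 18 collagen genes were lower than in mice given IgG and 2 were higher, the most calls of the 6 comparisons. Over all genes 24.3% passed, 12.6% lower and 11.7% higher, against 42.9% of collagen genes lower. Among bright genes 15 of 24 collagen genes and 14.9% of all 9103 were lower. The median difference was -0.14 for collagen genes and -0.00 for all genes. Here type I chains fell along with types III, V, IV, VI and XV.

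The fibrillar group had 6 falls and 1 rise among 11 genes. Col3a1 read 12.82 and 12.70 with IgG and 11.27 and 11.29 with antibody (-1.48 ± 0.11, 2.79-fold lower, adjusted p = 3.7e-11). Col5a2 read 11.34 and 11.20 against 9.77 and 9.81 (-1.48 ± 0.11, 2.79-fold lower, adjusted p = 4.3e-11). These neighbouring genes had nearly the same difference. Col5a3 read 10.73 and 10.64 against 9.52 and 9.37 (-1.24 ± 0.12, adjusted p = 2.3e-09), and Col5a1 read 10.09 and 10.11 against 8.98 and 9.06 (-1.08 ± 0.11, adjusted p = 1.7e-08). Col1a1, the major chain of type I, read 11.32 and 11.16 against 10.16 and 10.06 (-1.13 ± 0.12, 2.19-fold lower, adjusted p = 3.8e-08). Its partner Col1a2 read 12.61 and 12.58 against 12.04 and 12.04 (-0.56 ± 0.11, 1.47-fold lower, adjusted p = 0.00028). Both antibody arrays lay below both IgG arrays in all 6 genes, and the arrays were apart in all 20 collagen genes called in this comparison. Every probe set of Col1a1, Col1a2, Col3a1, Col5a1 and Col5a2 was lower. The other Col1a2 probe sets read -1.21 ± 0.13 and -0.54 ± 0.17. The second of Col5a3 did not pass (-0.21 ± 0.15, limma adjusted p = 0.37 over all probe sets). Col27a1, a fibrillar collagen known from cartilage, was higher, at 7.85 and 8.00 against 7.30 and 7.44 (0.55 ± 0.12, adjusted p = 0.00094).

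Of 9 basement membrane genes 5 fell. Col15a1 read 10.92 and 10.83 with IgG and 9.72 and 9.68 with antibody (-1.17 ± 0.12, 2.25-fold lower, adjusted p = 8.2e-09). Col4a2 read 12.33 and 12.45 against 11.53 and 11.55 (-0.85 ± 0.11, adjusted p = 1.6e-06), Col18a1 read 10.18 and 10.20 against 9.41 and 9.50 (-0.73 ± 0.10, adjusted p = 4.1e-06), and Col4a1 read 12.82 and 12.84 against 12.16 and 12.20 (-0.65 ± 0.10, adjusted p = 2.0e-05). The groups were apart in all 4. Col4a5 passed narrowly (-0.40 ± 0.15, adjusted p = 0.046), and its second probe set read -0.87 ± 0.15. The Col4a5 call was lost without array a of IgG (-0.27, adjusted p = 0.320) and without array a (-0.32, adjusted p = 0.242) or b (-0.48, adjusted p = 0.0619) of the antibody group. With the same difference, it was also lost in a fit of the antibody experiment's arrays alone (adjusted p = 0.0556) and without any 1 array of the high fat groups of the diet experiment (adjusted p = 0.0513 to 0.0552).

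Type VI chains fell again. Col6a1 read 11.73 and 11.58 with IgG and 10.64 and 10.61 with antibody (-1.03 ± 0.11, 2.05-fold lower, adjusted p = 2.6e-08). Col6a2 read 12.21 and 12.26 against 11.19 and 11.22 (-1.03 ± 0.10, 2.04-fold lower, adjusted p = 6.8e-09). Col6a3 read 11.20 and 11.19 against 10.42 and 10.50 (-0.74 ± 0.10, 1.67-fold lower, adjusted p = 3.9e-06). No antibody array reached an IgG array in these genes. Further falls were Col16a1 (8.27 and 8.31 to 7.38 and 7.48, -0.86 ± 0.13, adjusted p = 8.8e-06), Col8a1, a network-forming collagen of vessel walls (-0.83 ± 0.14, adjusted p = 5.7e-05), Col14a1, a fibril-associated collagen (-0.42 ± 0.12, adjusted p = 0.0091), and Col6a4 (-0.35 ± 0.13, adjusted p = 0.049). Col20a1 rose (0.47 ± 0.14, adjusted p = 0.013). The call of Col14a1 was lost without array b of IgG (-0.34, adjusted p = 0.117) or a of the antibody group (-0.39, adjusted p = 0.0766), that of Col20a1 without array a of IgG (0.29, adjusted p = 0.228) or b of the antibody group (0.42, adjusted p = 0.101), and that of Col6a4 without any of the 4 arrays (-0.38 to -0.32) and when WT_RD, KO_RD or KO_HFD arrays were left out. Averaging over a gene's probe sets ended the calls of Col20a1 (0.22, adjusted p = 0.126) and Col6a4 (-0.21, adjusted p = 0.0932), and a fit of the antibody experiment's arrays alone ended that of Col6a4 (adjusted p = 0.117). Quantile normalization over 12 arrays also ended the calls of Col4a5, Col6a4, Col14a1 and Col20a1 (-0.28, -0.27, -0.34 and 0.34).

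All 5 macrophage markers fell with the antibody (median -0.87), and their summed level was 14.2 to 14.3 with IgG and 13.4 with antibody. The 6 skeletal muscle markers rose (median 5.74), as did 4 of 7 smooth muscle markers (0.72) and 4 of 5 mesothelial markers (0.72). Fibroblast markers did not fall as a group: 2 of 8 rose and 1 fell (median 0.04), with a summed level of 14.4 on both IgG arrays and 14.4 to 14.5 with antibody. Of the 3 members that also belong to the fibril-associated list, Lum fell. The part of macrophage and muscle markers in the collagen falls was not tested.

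The genotype comparison on regular diet and the antibody comparison share no array. Of the 12 collagen genes lower in Smad3-/- mice, 11 (91.7%) were also lower with the antibody, which is 61.1% of the 18 lower there. Over all genes the corresponding shares were 21.3% and 26.4%. Those among the bright genes, to which all 12 belong, were not counted. The 11 are Col3a1, Col5a1, Col5a2, Col5a3, Col4a1, Col4a2, Col15a1, Col18a1, Col6a1, Col6a2 and Col6a3. The remaining gene, Col23a1, was at 0.28 ± 0.14 with the antibody and did not pass. All 4 genes lower in Smad3-/- mice on high fat diet were lower with the antibody, against 38.4% over all genes. The diet comparison in wild type also shares no array with the antibody comparison. Of the 8 collagen genes lower there on high fat diet, 7 (87.5%) were lower with the antibody, against 13.8% over all genes. All 7 are among the 11, and the wild type arrays on regular diet are in both the diet and the genotype comparison. The order within the 11 was not alike: Col4a1 had the largest difference by genotype and the smallest by antibody (-2.00 and -0.65), whereas Col5a1 was at -0.39 and -1.08. Outside the 11, Col1a1 was at 0.00 by genotype and -1.13 by antibody. These differences between the experiments were not tested, since their scales differ.

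**Figure D4:**
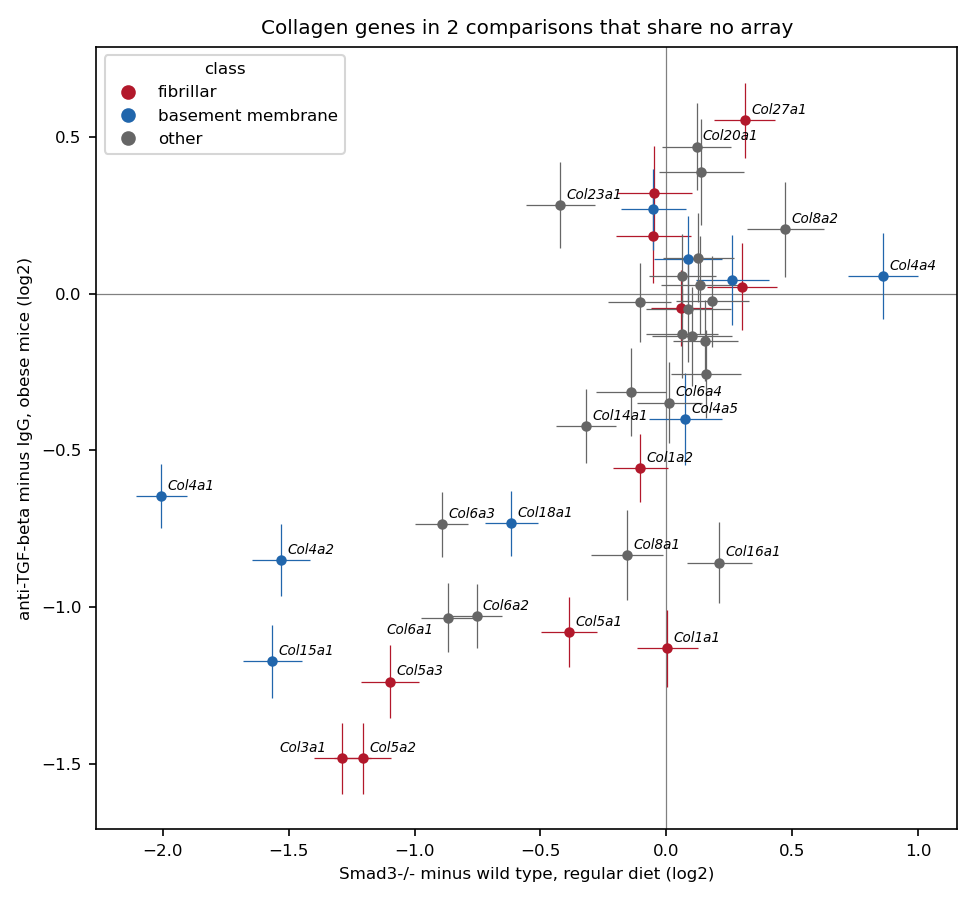
Log2 difference of the 42 collagen genes in Smad3-/- against wild type mice on regular diet (horizontal) and in antibody against IgG in obese mice (vertical), with SE bars, coloured by class. Genes that passed in either comparison are named. The 11 genes lower in both lie at the lower left, with the basement membrane genes Col4a1, Col15a1 and Col4a2 furthest left and Col3a1 and Col5a2 lowest, and Col1a1 on the vertical line at 0.

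Genes that make, process and bind collagen were taken from lists of related genes, and those named with a difference passed unless stated. Their counts stand against the shares over all genes and, in brackets, over the 9103 bright genes. Lower were 15.6% (27.0%) by genotype on regular diet, 6.05% (8.95%) by genotype on high fat diet and 12.6% (14.9%) with the antibody, and 11.7% (15.8%) were higher with the antibody. For hydroxylation, folding and export (21 measured), 7 were lower and 2 higher in Smad3-/- mice on regular diet, and 8 lower and 2 higher with the antibody. Serpinh1, the collagen chaperone HSP47, read 10.57 and 10.72 in wild type, 8.94 and 8.86 in Smad3-/- mice on regular diet, 10.09 and 10.30 in wild type on high fat diet and 9.46 and 9.56 in Smad3-/- mice on high fat diet. It differed by -1.74 ± 0.10 between genotypes on regular diet (adjusted p = 1.2e-13) and by -0.68 ± 0.10 on high fat diet (adjusted p = 1.7e-05). With the antibody it read 10.88 and 10.90 against 11.90 and 11.99 (-1.05 ± 0.10, adjusted p = 6.0e-09). Serpinh1 thus was lower in all 3 comparisons. Crtap, a subunit of the prolyl 3-hydroxylation complex, was lower on regular diet (-0.80 ± 0.11), and P3h1, its enzyme, and Colgalt1, which glycosylates collagen, were lower with the antibody (-1.04 ± 0.14 and -0.81 ± 0.12). P3h4, from the same list, was higher in Smad3-/- mice on regular diet (1.09 ± 0.14).

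Of 11 processing and cross-linking genes, 5 were lower on regular diet and 2 on high fat diet in Smad3-/- mice, and 3 were lower with the antibody. Loxl1, a lysyl oxidase relative, differed by -1.23 ± 0.11 by genotype on regular diet. Pcolce2, an enhancer of procollagen trimming, differed by -1.18 ± 0.15 there, -1.23 ± 0.15 on high fat diet and -1.17 ± 0.15 with the antibody. Lox, the main cross-linking enzyme, was lower by genotype on high fat diet (-0.82 ± 0.11) and with the antibody (-0.93 ± 0.11), and rose with high fat diet in wild type (0.59 ± 0.11), where 8 collagen genes fell.

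Of 18 fibril-associated proteins, 10 were lower in Smad3-/- mice on regular diet, 7 fell in wild type on high fat diet, and 11 rose in Smad3-/- mice on high fat diet. With the antibody 8 fell and 4 rose. The shares over all genes were 6.11% lower with high fat diet in wild type (10.2% of bright genes) and 11.5% higher in Smad3-/- mice (20.0%). Fn1, fibronectin, on which collagen is laid down, read 10.87 and 10.82 in wild type and 8.91 and 8.74 in Smad3-/- mice on regular diet (-2.02 ± 0.10), and on high fat diet 10.15 and 10.19 against 9.97 and 10.11. The latter difference did not pass. Prelp, a proteoglycan that anchors basement membranes to collagen, differed by -1.88 ± 0.11 on regular diet, -1.34 ± 0.11 on high fat diet and -0.98 ± 0.11 with the antibody. Lum, which binds collagen fibrils and limits their width, fell with the antibody from 11.04 and 11.13 to 10.00 and 10.00. Podn, a small proteoglycan, rose with the antibody (1.07 ± 0.11).

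Of 19 basement membrane partners, 8 were lower and 2 higher in Smad3-/- mice on regular diet, and 4 were lower and 2 higher with the antibody. The antibody counts lay near the background in both directions. Nid1, which joins laminin to type IV collagen, read 10.77 and 10.97 in wild type and 8.76 and 9.11 in Smad3-/- mice on regular diet (-1.94 ± 0.11), was lower on high fat diet too (-0.64 ± 0.11), and fell by 0.49 ± 0.11 with the antibody. The laminin chains Lama4 and Lamc1 were lower on regular diet (-1.15 ± 0.11 and -1.12 ± 0.12). Of 11 collagen receptors, 4 were lower and 1 higher on regular diet and 3 were lower with the antibody. Mrc2, which takes up collagen for breakdown, read 9.83 and 9.79 with IgG and 7.26 and 7.59 with antibody (-2.39 ± 0.13). It was also lower by genotype on both diets (-0.57 ± 0.13 and -0.95 ± 0.13). Lair1, an inhibitory collagen receptor of immune cells, fell by 1.33 ± 0.14 with the antibody, where all 5 macrophage markers fell.

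**Figure D5:**
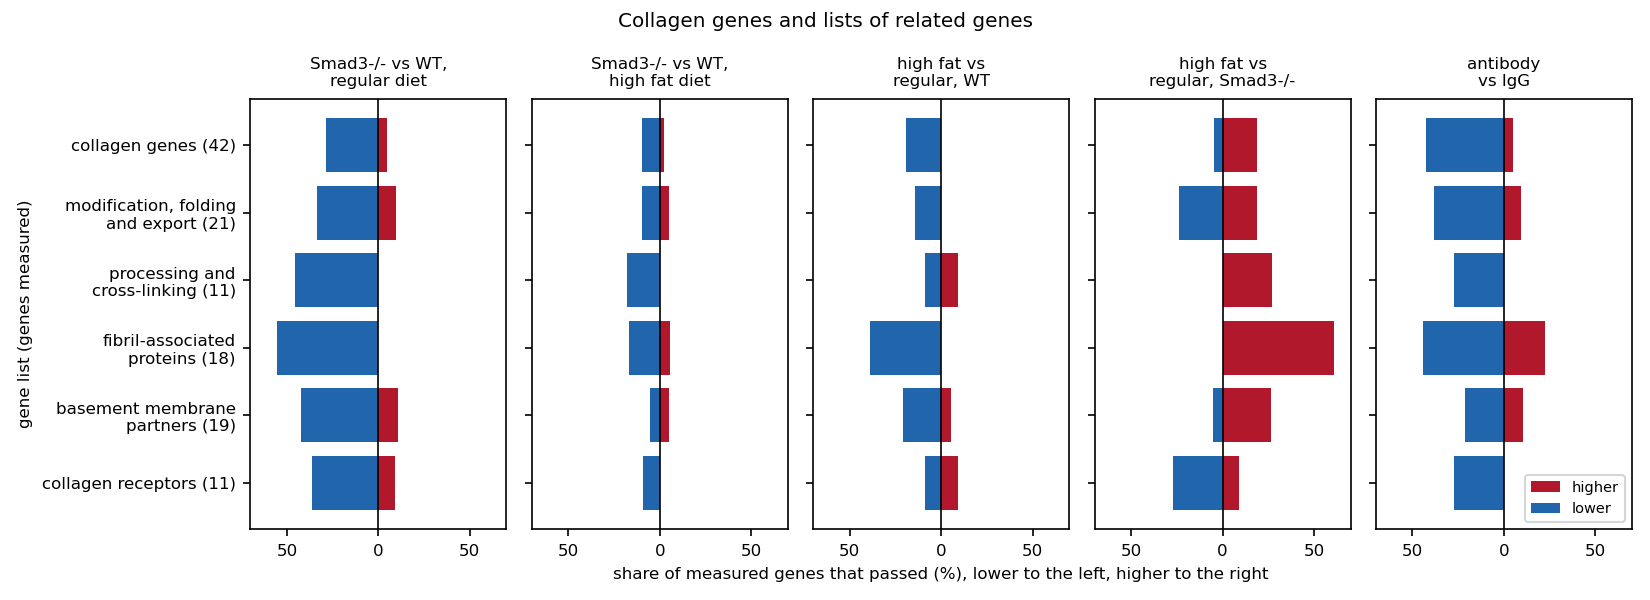
Share of measured genes that passed in the 5 comparisons of 2 groups (panels), lower to the left in blue and higher to the right in red, for the 42 collagen genes and 5 lists of related genes, with the number measured in parentheses. Fibril-associated proteins go from 10 of 18 lower in Smad3-/- mice on regular diet to 11 of 18 higher with high fat diet in Smad3-/- mice.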

How the data were processed

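The members, classes and gene lists were chosen with earlier results of these data known. The deposited values are log2 expression values, made by the authors with RMA in the software Partek, as the submitters' processing notes give it, with versions not given in the sources used here. RMA's quantile step makes a value relative to the other arrays of its run, and no detection calls were used here.

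Of the probe sets naming only 1 gene, 82 named a collagen gene, and 27 collagen genes had more than 1. Group means over the 12 arrays were fitted with limma 3.58.1 in R 4.3.3 by lmFit, contrasts and a two-sided eBayes test with a trend on intensity (6 residual and 20.4 prior degrees of freedom), and the fit was tested on simulated data. The number of arrays limits the precision.

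Array values are given for 12 preset genes and, per comparison, up to 8 called collagen genes with the largest differences. These 8 had to have arrays that did not overlap between groups, except in the interaction. Every called collagen gene in the comparisons of 2 groups had such arrays, so a lack of overlap adds no support to a call. Its share over all genes was not counted. Other called genes are named so that each has a value. Of each related list, up to 4 called genes per comparison with the smallest p could be named. Cartilage and bone markers (4 measured) had median differences of -0.06 to 0.17, Schwann cell markers (3) at most 2 in a comparison and epithelial markers (6) at most 4.

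Alternatives changed the eBayes prior (no trend, or robust), dropped dim genes (mean below the 40th percentile of probe set values), averaged each gene's probe sets, applied quantile normalization over 12 arrays, used the arrays of 1 experiment, added a replicate block, or left out each array, where the lone array of its group was assumed to vary like the other groups. A fit without the regular-diet arrays was added after seeing the data. Whether the letters a and b pair the samples was not settled. Over 7 pairs of groups, same-letter deviations correlated from -0.16 to 0.17, above 0.1 in 2. These 2 were wild type with Smad3-/- mice on regular diet (0.12) and on high fat diet (0.17). Each group gives only 1 difference, so such correlations cannot exclude a pairing.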

Additional observations from a re-analysis of the deposited data

Results flagged for a closer look

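The diet difference of 12 collagen genes differed between the genotypes by the limma test of the interaction (Benjamini-Hochberg adjusted p under 0.05 over all genes). The values are the diet difference in Smad3-/- mice minus that in wild type, on the log2 scale. Above 0 were Col4a1 (1.55), Col3a1 (1.44), Col15a1 (1.31), Col5a2 (1.12), Col4a2 (0.98), Col6a3 (0.97), Col5a3 (0.90), Col23a1 (0.78), Col6a1 (0.55) and Col6a2 (0.52). Below 0 were Col4a4 (-0.79) and Col16a1 (-0.66). The smallest of these rested on few arrays. Col6a1 lost its call without array a of wild type on either diet (0.49 and 0.42), without array b of Smad3-/- mice on regular diet (0.42) and after quantile normalization over 12 arrays (0.26). Col6a2 lost it without array a of wild type on high fat diet (0.39) and after that normalization (0.11). Col16a1 lost it without array a of wild type (-0.48) or of Smad3-/- mice (-0.54) on high fat diet, and without array b of Smad3-/- mice on regular diet (-0.57).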

How the results depend on the processing

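Of 94 pairs of a named collagen gene and a comparison under 19 alternatives, 60 kept their side of the threshold in every alternative that gave a value. A change of sign was counted only where the main or the alternative fit passed. Of 1784 values, 1688 kept their side, 81 lost the call, 14 gained it and 1 reversed: Col1a2 by genotype on regular diet went from -0.10, not passed, to 0.19 (adjusted p = 0.0486) after quantile normalization over 12 arrays. The cause was not tested. That normalization called 8 collagen genes by genotype on high fat diet (2 higher, 6 lower) where the main count was 5. It also moved the split of all calls on regular diet from 1528 higher and 2833 lower to 2438 and 2572, that of diet in Smad3-/- mice from 2091 and 1059 to 2066 and 1551, and that of the interaction from 2181 and 1232 to 2095 and 1747, with collagen calls of 3 higher and 12 lower, 5 and 3, and 8 and 2.

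With 1 array left out, collagen calls ranged from 2 to 6 for genotype on high fat diet (2 without array a of Smad3-/- mice, 3 without array b), from 5 to 10 for diet in Smad3-/- mice, 12 to 15 for genotype on regular diet, 6 to 10 for diet in wild type, 9 to 13 for the interaction and 17 to 19 for the antibody. The replicate block gave 14, 5, 8, 10, 12 and 19 calls for the 2 genotype comparisons (regular, then high fat), the 2 diet comparisons (wild type, then Smad3-/-), the interaction and the antibody, against 14, 5, 8, 10, 12 and 20, and it ended only the call of Col6a4 (adjusted p = 0.0507). Without the regular-diet arrays, 5 collagen genes passed by genotype on high fat diet (0 higher, 5 lower, 4 of them called before) and 19 by antibody.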
